A study of Mus musculus with 4 samples.

Results

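Kupffer cells are the resident macrophages of the liver, and 9 genes that mark them in mice (Clec4f, Timd4, Vsig4, Cd5l, Marco, Cd163, Folr2, Adgre1 and Csf1r) were followed in whole liver of mice with and without hepatocyte LPIAT1. The markers were chosen by name, and every probe whose transcript accession belongs to one of them was taken, which gave 12 of the 56605 probes and 9 of the 23462 genes on the array. LPIAT1, encoded by Mboat7, attaches arachidonic acid to lysophosphatidylinositol. RNA of whole liver was hybridised to 4 one-colour arrays, 1 for each combination of genotype and diet. All mice were male, on a C57BL/6 background and 24 weeks of age, and all carried floxed Lpiat1 alleles. F/F mice had no Cre, and LKO mice (Alb-Cre; Lpiat1F/F) carried Cre driven by the promoter of albumin, a hepatocyte gene, so that Kupffer cells are not its target. Chow was a standard diet, and the high fat diet (HFD) was given for 18 weeks from 6 weeks of age. The sources used here do not say how many mice gave the RNA of an array.

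Kupffer cells line the liver sinusoids, where they take up bacteria, aged red blood cells, lipoproteins and dying cells from portal blood. They are seeded before birth and renew themselves locally, and when they are lost in a fatty liver, monocytes from the blood replace them and acquire Kupffer markers at different speeds. Clec4f (a galactose-binding C-type lectin) is close to restricted to Kupffer cells, and Timd4 is characteristic of the long-lived embryonic ones, while Csf1r and Adgre1 are carried by macrophages and monocytes in general. Because the RNA is from whole liver, fewer cells of a type and less RNA per cell cannot be told apart.

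On HFD, 6 markers (Clec4f, Vsig4, Cd5l, Folr2, Adgre1 and Csf1r) gave a higher signal in LKO than in F/F liver and 3 (Timd4, Marco and Cd163) gave a lower one. Marco, a scavenger receptor, was 3.12-fold lower, Timd4 1.94-fold lower and Cd163 1.57-fold lower, against 1.62-fold higher for Vsig4 and 1.60-fold higher for Cd5l. On chow, Marco was 1.47-fold lower in LKO, and each of the other 8 markers differed by 1.14-fold or less. In LKO liver, all 3 lower markers were more than 2-fold lower on HFD than on chow, as were 4.07% of genes. Under other processing Timd4 ran from -1.13 to -0.82 (log2), so that it did not always pass 2-fold. A single array stands for each condition, so these differences lack replicates, none was tested, and the comparisons share arrays.

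All levels are the log2 of the background-subtracted spot signal minus the 75th percentile of the array, so that 0 is a signal higher than that of 75% of the spots. Signals, single or summed, are printed before this scaling, and the percentile itself was 222 in F/F chow, 213 in LKO chow, 263 in F/F HFD and 296 in LKO HFD, so that unscaled signals are higher on HFD by that much. The only measure of error is the spread between copies of a probe on one array, with a SD of 0.087 (log2) between 2 copies where the probe is well above background and 0.52 where it is dimmer. It leaves out differences between mice, RNA preparations and arrays. Across the 4 comparisons it was exceeded by 64.8% to 85.3% of all genes, so that passing it sets no marker apart. On the arrays, 53.0% to 57.0% of 59305 spots were well above background and none was saturated. Mboat7 was 0.30 lower in LKO on chow and 0.27 lower on HFD (log2), and where its probe lies relative to the deleted part was not determined.

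**Figure D1:**
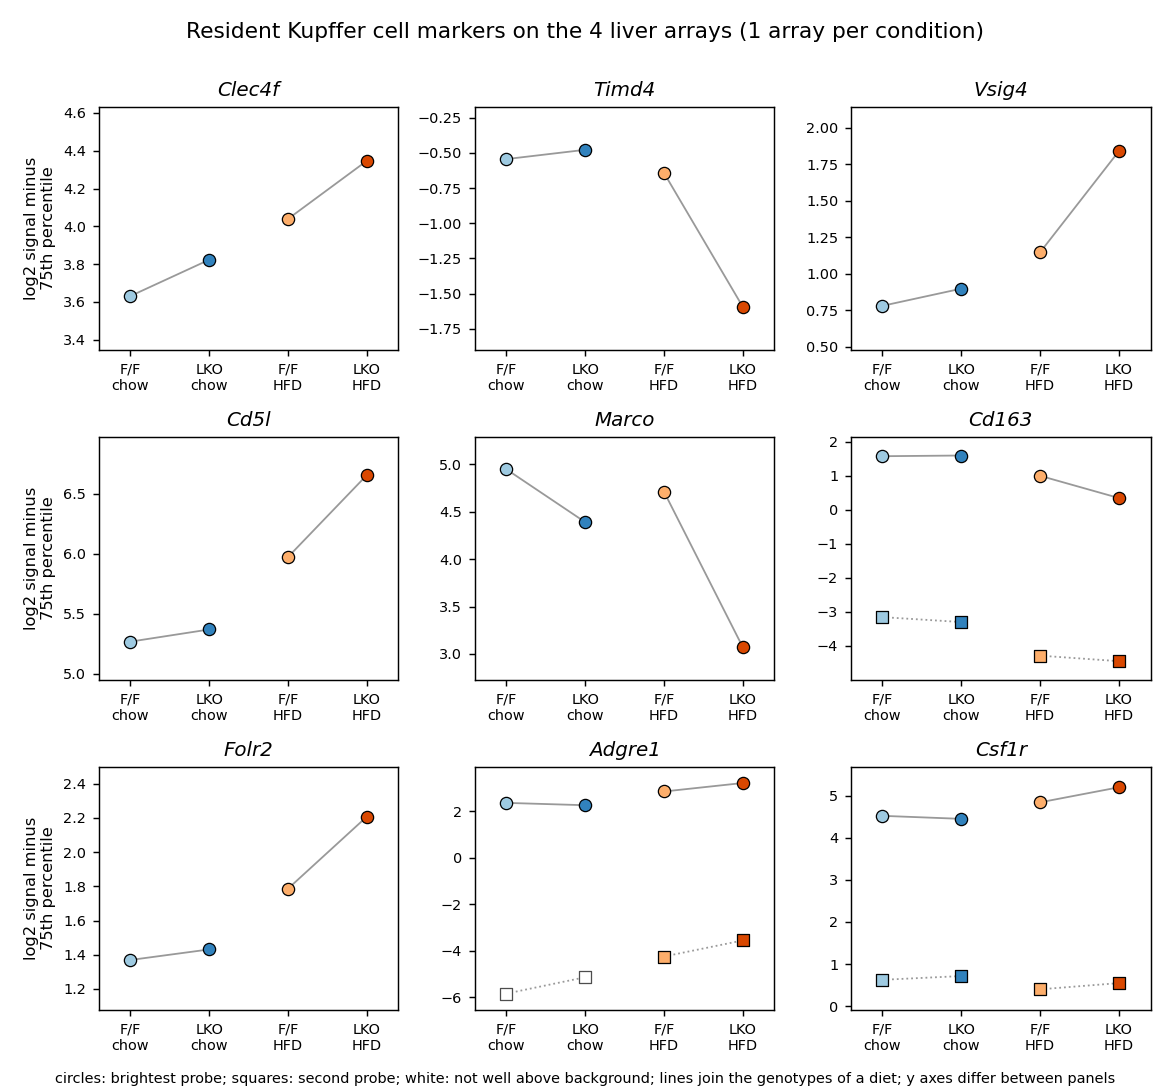
Level of each marker on the 4 arrays (log2 signal minus the 75th percentile of the array; the y axes differ between panels, and each point is 1 probe on 1 array, with no error bar as there are no replicates). Circles are the brightest probe and squares the second probe, a white square is not well above background, and lines join F/F and LKO of the same diet. Of the brightest probes, 6 are highest on the LKO HFD array and 3, those of Timd4, Marco and Cd163, are lowest there.

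To show the start sites of markers that moved in opposite ways, the 300-base promoter windows of the 3 lower markers are given, with those of the 2 markers that were highest in LKO over F/F on HFD. They come from RefSeq (build GRCm38.p6), run from 250 bases before to 50 bases after the annotated start and read along the strand of the gene. Windows were at hand for 7 of the 9 markers, with a second one for Folr2. Capitals mark matches to GAGGAA (the core of the purine-rich box of PU.1, a factor that macrophages need; TTCCTC on the other strand) and to TGCTGA (a core bound by factors of the MAF family; TCAGCA on the other strand), and no base lies in matches of both.
Timd4, chr11:46810549-46810848, plus strand: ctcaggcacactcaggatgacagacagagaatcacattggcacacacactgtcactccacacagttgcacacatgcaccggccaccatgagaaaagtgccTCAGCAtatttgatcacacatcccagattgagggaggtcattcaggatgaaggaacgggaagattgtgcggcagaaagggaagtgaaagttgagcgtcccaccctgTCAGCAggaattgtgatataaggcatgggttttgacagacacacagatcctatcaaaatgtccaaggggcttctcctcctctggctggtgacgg
Marco, chr1:120504975-120505274, minus strand: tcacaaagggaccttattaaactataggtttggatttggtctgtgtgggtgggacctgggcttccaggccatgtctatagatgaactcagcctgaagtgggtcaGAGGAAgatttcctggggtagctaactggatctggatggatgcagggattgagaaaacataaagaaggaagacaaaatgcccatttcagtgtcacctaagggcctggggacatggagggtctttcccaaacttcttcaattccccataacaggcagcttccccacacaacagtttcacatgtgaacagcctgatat
Cd163, chr6:124304401-124304700, plus strand: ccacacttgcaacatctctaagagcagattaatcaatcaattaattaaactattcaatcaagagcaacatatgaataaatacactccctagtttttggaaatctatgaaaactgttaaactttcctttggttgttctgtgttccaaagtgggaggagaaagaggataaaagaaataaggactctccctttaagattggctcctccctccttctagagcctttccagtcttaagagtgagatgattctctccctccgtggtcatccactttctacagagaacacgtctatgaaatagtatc
Vsig4, chrX:96293389-96293688, minus strand: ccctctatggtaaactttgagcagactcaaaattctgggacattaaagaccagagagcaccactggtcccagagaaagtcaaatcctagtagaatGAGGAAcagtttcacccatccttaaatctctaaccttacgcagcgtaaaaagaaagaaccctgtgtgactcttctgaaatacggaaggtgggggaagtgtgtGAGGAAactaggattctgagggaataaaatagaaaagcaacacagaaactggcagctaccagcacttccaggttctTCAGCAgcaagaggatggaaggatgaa
Cd5l, chr3:87357631-87357930, plus strand: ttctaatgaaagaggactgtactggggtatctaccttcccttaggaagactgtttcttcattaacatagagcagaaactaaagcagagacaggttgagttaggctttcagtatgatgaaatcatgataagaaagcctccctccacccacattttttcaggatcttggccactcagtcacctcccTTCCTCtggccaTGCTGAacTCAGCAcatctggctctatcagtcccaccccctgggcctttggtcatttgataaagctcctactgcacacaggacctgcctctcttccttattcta
Of all 32851 windows of this length, 28.3% hold GAGGAA and 19.5% hold TGCTGA on either strand. Among the markers, GAGGAA occurred in the windows of Vsig4, Cd5l and Marco, and TGCTGA in those of Clec4f, Timd4, Vsig4, Cd5l and Folr2. Vsig4 held GAGGAA at positions -155 and -53 from the start, Marco at -146 and Cd5l at -66. Timd4 held TGCTGA at -150 and -44, and Cd5l at -54 and -46. The window of Cd163 held neither. A match describes the letters in the window. Neither motif was found in the higher or the lower markers alone, and Adgre1 and Csf1r had no window.

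Marco, Timd4 and Cd163 are receptors for particles and proteins taken up from blood. Marco binds bacteria and modified lipoproteins. Its probe read a signal of 6849 in F/F chow, 4474 in LKO chow, 6892 in F/F HFD and 2481 in LKO HFD, which is 4.95, 4.39, 4.71 and 3.07 on the log2 scale. LKO was lower than F/F on both diets, with the LKO HFD array lowest. The difference between genotypes was -0.56 on chow and -1.64 on HFD, so that it was larger on HFD by 1.08. Among the 15528 genes with a value on the HFD arrays, Marco stood 87th from the lowest. Of all markers it varied most over the 4 arrays, by 1.88.

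Timd4 encodes TIM-4, a receptor for phosphatidylserine on dying cells. Its signals were 152 in F/F chow, 153 in LKO chow, 169 in F/F HFD and 97.8 in LKO HFD, or -0.54, -0.48, -0.64 and -1.60 on the log2 scale. The LKO HFD array stood apart and the other 3 lay close together. On chow LKO and F/F differed by 0.07, within the spread of spot copies, and on HFD LKO was lower by 0.95 (330th from the lowest of 15528 genes). HFD against chow was -0.10 in F/F (0.036 at the scale of the deposited value table) and -1.12 in LKO.

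Cd163 is a scavenger receptor for haemoglobin. Its brightest probe read 659 in F/F chow, 643 in LKO chow, 525 in F/F HFD and 375 in LKO HFD, with log2 levels of 1.57, 1.59, 0.995 and 0.342. Both HFD arrays were below both chow arrays, and LKO HFD was lowest. The genotypes differed by 0.02 on chow and by -0.65 on HFD (751st from the lowest). HFD against chow gave -0.58 in F/F and -1.25 in LKO. A second probe, at signals of 24.9, 21.7, 13.5 and 13.6 in the same order and above background on all arrays, was also lower on HFD, at -1.13 in F/F and -1.15 in LKO (log2). That probe gave -0.14 for LKO against F/F on chow and -0.16 on HFD, the latter a smaller difference than the brighter one.

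Clec4f and Vsig4 mark Kupffer cells most narrowly among the 6 others. The signals of Clec4f were 2747 in F/F chow, 3020 in LKO chow, 4327 in F/F HFD and 6017 in LKO HFD (3.63, 3.82, 4.04 and 4.35, log2). It was higher in LKO than in F/F on both diets, by 0.19 on chow and 0.31 on HFD, and higher on HFD by 0.41 in F/F and 0.52 in LKO. Vsig4, the complement receptor CRIg that binds C3 fragments on bacteria, read 381, 398, 583 and 1060 in the same order (0.78, 0.90, 1.15 and 1.84, log2). The chow arrays differed by 0.12 and the HFD arrays by 0.69, with LKO HFD highest. HFD against chow in LKO was 0.94 for Vsig4.

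Cd5l encodes AIM, a secreted protein that macrophages release into blood and that inhibits apoptosis. Signals of 8540 in F/F chow, 8813 in LKO chow, 16520 in F/F HFD and 29783 in LKO HFD were read, or 5.27, 5.37, 5.97 and 6.65 on the log2 scale. Both HFD arrays exceeded both chow arrays. LKO against F/F gave 0.10 on chow and 0.68 on HFD, and HFD against chow gave 0.70 in F/F and 1.29 in LKO, the highest diet difference of any marker. Folr2, a folate receptor of tissue-resident macrophages, read 573, 575, 908 and 1365 (1.37, 1.43, 1.79 and 2.21, log2). Its chow arrays differed by 0.06, within the spread of spot copies, and its HFD arrays by 0.42.

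Adgre1 encodes F4/80, the adhesion receptor by which mouse macrophages are commonly stained. The brightest probe read 1130 in F/F chow, 1013 in LKO chow, 1883 in F/F HFD and 2723 in LKO HFD (2.35, 2.25, 2.84 and 3.20, log2). LKO was lower by 0.10 on chow, where the mean of both probes gave 0.30, and higher by 0.36 on HFD. The second probe was not well above background on the chow arrays and read 13.8 in F/F HFD and 25.1 in LKO HFD, a difference of 0.69. Against the lowest reliable signal of the chow arrays, it was at least 1.49-fold higher on HFD in F/F and at least 2.24-fold higher in LKO.

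Csf1r is the receptor for CSF1 and IL-34, the growth factors on which macrophages depend. Its brightest probe read 5097 in F/F chow, 4665 in LKO chow, 7557 in F/F HFD and 10880 in LKO HFD (4.52, 4.45, 4.84 and 5.20, log2). On chow the genotypes differed by -0.07, within the spread of spot copies, and on HFD by 0.36. The second probe read 342, 350, 347 and 432 (0.62, 0.71, 0.40 and 0.55, log2) and was above background throughout. It gave 0.09 for LKO against F/F on chow and 0.15 on HFD, but -0.23 for HFD against chow in F/F and -0.17 in LKO, where the brightest probe gave 0.32 and 0.75. The probes of Csf1r thus disagree on the direction of the diet difference, and which transcripts each one reads was not determined.

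**Figure D2:**
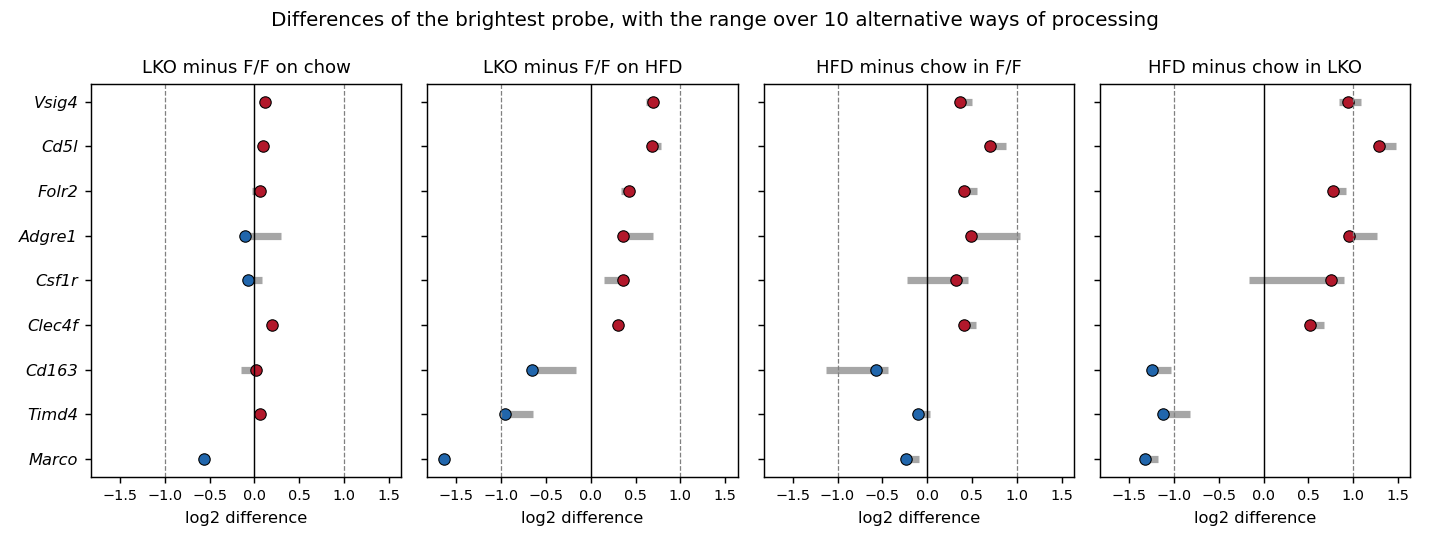
Log2 difference of the brightest probe of each marker in the 4 comparisons (1 panel each; dashed lines mark 2-fold). Dots are the values as reported (red above 0, blue below), and grey bars span the values from 10 other ways of processing, including other probes of the gene, and are not replicate errors. Marco lies at -1.64 and Timd4 at -0.95 for LKO against F/F on HFD, and the bar of Csf1r crosses 0 in both diet comparisons.

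Counted over all markers, LKO against F/F on chow gave 6 higher and 3 lower with a median of 0.06 (log2), where 50.7% of the 14981 genes with a value were higher. Of these, Timd4, Cd163, Folr2 and Csf1r lay within the spread of spot copies and have no firm direction. No marker differed by 2-fold there, against 1.11% of genes at least 2-fold higher and 1.03% at least 2-fold lower. For LKO against F/F on HFD, 6 were higher and 3 lower with a median of 0.36, where 45.9% of 15528 genes were higher and the median of all genes was -0.03. Marco was the marker past 2-fold, where 2.36% of genes were at least 2-fold higher and 1.91% at least 2-fold lower. In F/F, HFD against chow gave 6 higher and 3 lower (median 0.37), where 47.8% of 15358 genes were higher, and no marker passed 2-fold against 5.21% of genes higher and 2.94% lower by that much. In LKO, HFD against chow gave again 6 higher and 3 lower (median 0.75), where 43.5% of 15242 genes were higher. There, Cd5l was more than 2-fold higher, as were 8.12% of genes, and Timd4, Marco and Cd163 were more than 2-fold lower, as were 4.07%.

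The split lay in which array was extreme. Of the 9 markers, 6 were highest on the LKO HFD array, as were 25.7% of the 13981 genes well above background on all arrays, and 3 were lowest there, as were 39.8%. No marker was highest or lowest on the F/F HFD array, where 20.6% of these genes were highest and 19.3% lowest. With the 4 levels of a gene centred on their mean, the distance between profiles was 0.12 to 0.60 (log2) for the 15 pairs among the 6 higher markers, with Folr2 and Csf1r closest. It was 0.37 to 0.82 for the 3 pairs among Timd4, Marco and Cd163, and 1.40 to 2.46 for the 18 pairs with 1 gene from each side. These sides were read from the same levels, so the distances describe the split and do not test it.

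Set against Clec4f on the same HFD arrays, the genotype difference was lower by 1.95 for Marco, by 1.26 for Timd4 and by 0.96 for Cd163 (log2), and it lay within 0.05 to 0.39 above that of Clec4f for the other 5 markers. A scale factor common to an array drops out of these gaps, but variation between mice and arrays does not. The gaps of Adgre1 (0.06) and Csf1r (0.05) were below the 0.087 of spot copies, and none was tested. The diet difference of the 6 higher markers had a median of 0.41 for F/F and 0.86 for LKO, and that of the 3 lower ones a median of -0.24 for F/F and -1.25 for LKO. Both diet comparisons have their own control array, and the difference of the genotype differences (HFD minus chow) ran from -1.08 for Marco, -1.02 for Timd4 and -0.67 for Cd163 to 0.58 for Vsig4 and Cd5l.

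**Figure D3:**
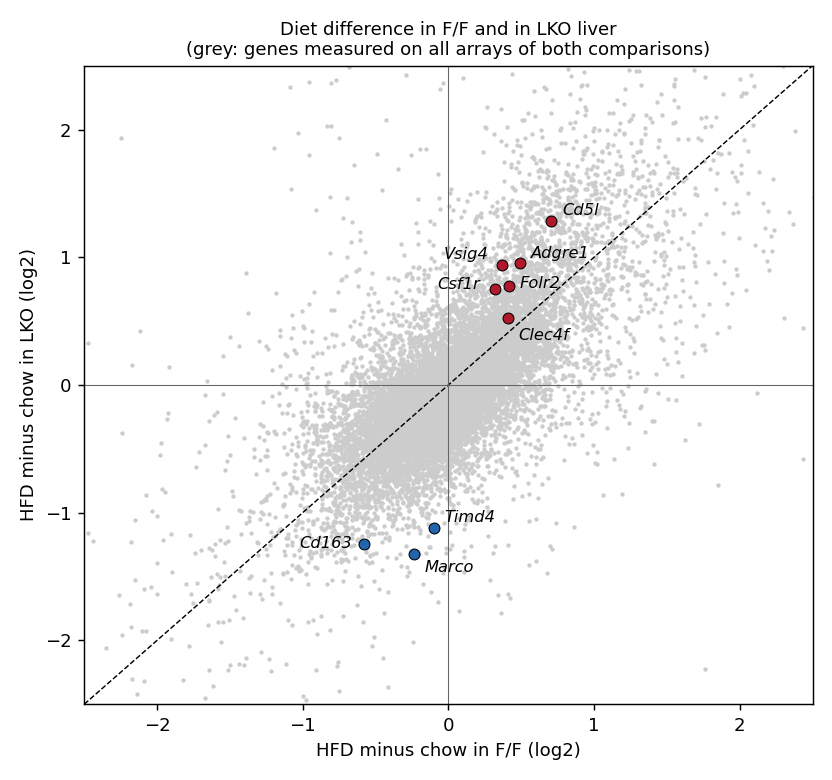
HFD minus chow in F/F (x axis) against HFD minus chow in LKO (y axis), both as log2 differences of the brightest probe, with 1 point per gene. Grey points are the 13981 genes measured on all arrays (117 lie outside the axes), coloured points are the markers, and the dashed line marks equal values. The 6 higher markers lie above the line at 0.52 to 1.29 on the y axis, and Timd4, Marco and Cd163 lie below it at -1.12 to -1.32.

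Other genes linked to Kupffer cells were mixed. Of 10 such genes, 9 had a value in LKO against F/F on HFD, 6 higher and 3 lower with a median of 0.44, and none reached 2-fold. Nr1h3, the liver X receptor that Kupffer cells and hepatocytes use, differed by -0.17, and Slc40a1, the iron exporter ferroportin, by -0.06. Hmox1, which degrades haem, was higher by 0.44, and Id3, a regulator needed for Kupffer cell development, was higher by 0.95. Id3 read 2083 in F/F chow, 2007 in LKO chow, 1021 in F/F HFD and 2221 in LKO HFD, so that the F/F HFD array was the low one.

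Transcription factors of the Kupffer cell program gave 6 higher and 4 lower of 10 in LKO against F/F on HFD (median 0.12). Cebpb, also active in hepatocytes, was lower by 0.45 on HFD.

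The ligands of the markers, listed here with hemopexin (Hpx), which is not one of them, are made mainly by other cells. Csf1 read 167 in F/F chow, 191 in LKO chow, 211 in F/F HFD and 343 in LKO HFD, and Il34 read 115, 128, 188 and 288. On HFD LKO exceeded F/F by 0.53 for Csf1 and 0.45 for Il34, while their receptor Csf1r was higher by 0.36. Haptoglobin (Hp), which binds haemoglobin, differed by -0.20, complement C3 by -0.01 and hemopexin by 0.02. Of all 5 genes, hemopexin included, 3 were higher and 2 lower. Genes of the Kupffer cell niche gave 7 higher and 2 lower of 9 with a value (median 0.35). They cover endothelial, stellate and hepatocyte signals that instruct the cell, and receptors for such signals. Gdf2 (BMP9, made by stellate cells) was higher by 0.34. Of the receptors, Tgfbr1 was higher by 0.23 and Notch1 was lower by 0.23.

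Relatives of the markers by family gave 14 higher and 8 lower of 22 with a value on HFD (median 0.40). Havcr2 (TIM-3), of the family of Timd4, was higher in LKO by 1.32, and Timd2 was lower by 0.45. Folr1, of the family of Folr2, was lower by 1.17 at signals of 38.7 in F/F and 19.4 in LKO. Adgre5 (CD97), of the family of Adgre1, was higher by 0.48. Colec12, a scavenger receptor of the class of Marco, differed by -0.06 and Clec4g, a C-type lectin of sinusoidal endothelium, by -0.09.

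Markers of other cells that a whole liver holds moved as well. Of 12 pan-macrophage genes, most of which Kupffer cells express too, 11 were higher in LKO on HFD, with a median of 0.79 above the 0.36 of the Kupffer markers, and their summed signal was 14067 in F/F chow, 13313 in LKO chow, 25523 in F/F HFD and 45509 in LKO HFD. Ctss (a lysosomal protease) was higher by 0.92, Cd14 (the co-receptor for lipopolysaccharide) by 1.14, C1qa by 0.77, C1qc by 0.71 and Mpeg1 by 0.74. All 8 genes of lipid-associated macrophages were higher (median 1.53), with summed signals of 4428, 7565, 10341 and 27611. Gpnmb was higher by 2.45, Cd63 by 1.55, Fabp5 by 1.52, Cd9 by 1.15 and Spp1 by 0.16. Gpnmb was not well above background on either chow array. Fabp5 weighed on these sums, at 2036 in F/F chow, 4949 in LKO chow, 2124 in F/F HFD and 6820 in LKO HFD. It was thus higher in LKO by 1.34 on chow too, and HFD against chow gave -0.19 in F/F and -0.01 in LKO.

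Of 10 monocyte genes, 8 were higher in LKO on HFD (median 0.41), at summed signals of 2580, 2631, 5102 and 7447. Cx3cr1 was higher by 1.0, S100a4 by 0.65, Plac8 by 0.58 and Ly6c2 by 0.22, Itgam differed by 0.01 and Vcan by -0.20. Sinusoidal endothelium, at 11750, 11755, 17443 and 19805, had a median of 0.06, with 6 genes higher and 4 lower. Stab2 was at 0.11, Mrc1 at 0.22 and Lyve1 at 0.48, against -0.09 for Clec4g and -0.29 for Dnase1l3. Hepatocyte genes had a median of -0.16 (2 higher and 5 lower), with summed signals between 707745 and 774625. None of the defining genes named for these lists was at background in both HFD arrays.

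Genes of cells from outside the macrophage lineage differed between the HFD arrays too, though the array that stood apart was not the same for each list. All 7 exocrine pancreas genes were higher in LKO HFD than in F/F HFD (median 1.90), with summed signals of 5087 in F/F chow, 2901 in LKO chow, 3147 in F/F HFD and 13202 in LKO HFD, and Amy2a5 (amylase) was higher by 2.04. Each of the 4 red blood cell genes with a value was lower (median -0.95), with Hba-a1 at -0.98. Their summed signals of 23752, 22460, 52420 and 29926 were highest on the F/F HFD array, and HFD against chow had a median of 0.82 in F/F and -0.04 in LKO. All 5 neutrophil genes that could be measured were below F/F in LKO, at a median of -0.99 on chow and -0.55 on HFD. Their sums of 4785, 2411, 5936 and 4131 were lowest on the LKO chow array, and S100a9 differed by -0.99 on chow and -0.74 on HFD. For LKO against F/F on HFD, medians were 0.76 for 5 T cell genes (the bound of Cd8a, well above background in LKO HFD alone, and 0.036 to 1.07 under other processing), 0.11 for 5 B cell genes, 0.24 for 7 stellate cell genes and 0.47 for 6 dendritic cell genes. Siglech and Cd4, in the last and the first of these lists, read 14889 to 15948 and 3407 to 4183 over the 4 arrays. The part of these cells in the levels of the Kupffer markers was not tested.

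**Figure D4:**
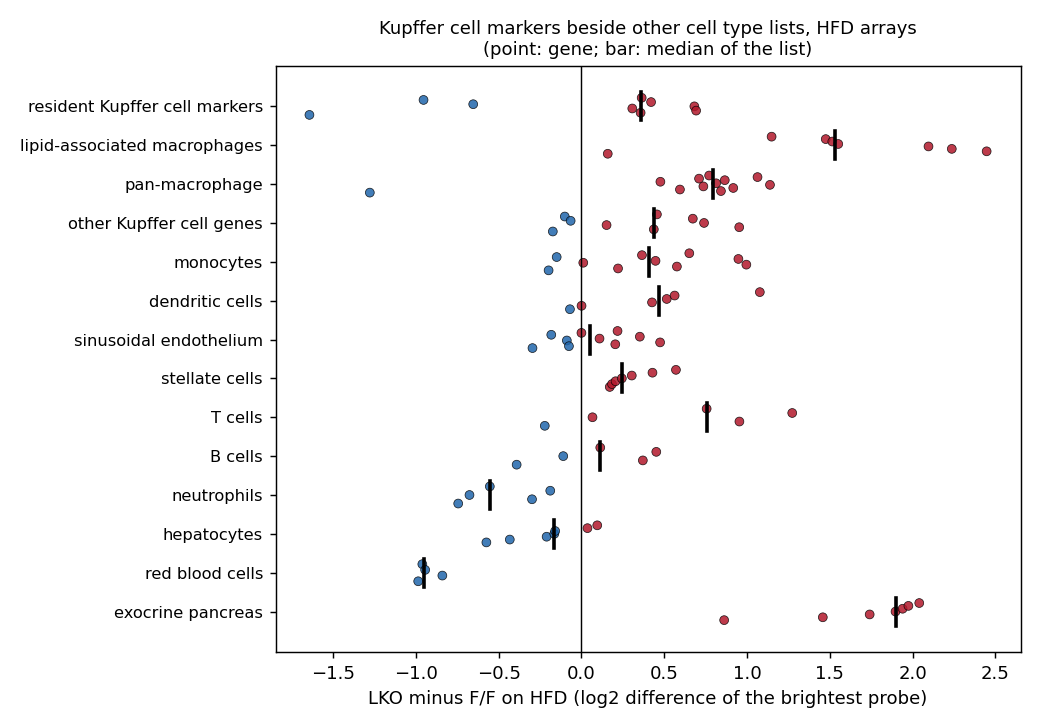
LKO minus F/F on HFD (x axis, log2 difference of the brightest probe) for the genes of each list (rows); each point is a gene with a value, red above and blue below 0, and the black bar is the median of the list. The Kupffer markers spread from -1.64 to 0.69 around a median of 0.36, while the lipid-associated macrophage genes centre on 1.53.

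Macrophage and monocyte lists also differed between the HFD and chow arrays in F/F liver. HFD against chow in F/F gave medians of 0.59 for pan-macrophage, 1.12 for monocyte and 2.13 for lipid-associated macrophage genes, and in LKO 1.34, 1.47 and 3.22, against 0.37 and 0.75 for the Kupffer markers. Under other processing the monocyte median ran from 0.46 to 1.26 in F/F and from 0.79 to 1.74 in LKO. That of lipid-associated macrophages ran from 1.39 to 2.26 and from 2.36 to 3.37, and that of pan-macrophage genes from 0.55 to 0.73 and from 1.23 to 1.48. On chow, LKO against F/F gave -0.0030 for pan-macrophage, 0.02 for monocyte and 0.37 for lipid-associated macrophage genes, against 0.06 for the markers.

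Genes with the profile most like each marker were sought among 5904 others that passed the background flag on every array and varied by a SD of at least 0.25, by the distance between the 4 centred levels. Nearest were Idh2 to Clec4f (0.02), Pik3cd to Vsig4 (0.04), Tbc1d9 to Cd5l (0.04), 4930402H24Rik to Folr2 (0.02), Gucy1a2 to Adgre1 (0.05) and Cgas to Csf1r (0.02). Nearest to Timd4 was C1qtnf3 (0.07), to Cd163 Gm3285 (0.05) and to Marco Mcm10, at 0.18 the most distant of these neighbours. The genes nearest to the mean of the 9 profiles were Fez2, Lrch1, Prelp, Rell1 and Lyplal1, at 0.25 to 0.26. With 4 arrays, short distances are easily met among so many genes, and likeness here says nothing of function.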

How the data were processed

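Liver RNA was labelled with Cy3 and hybridised to 4 one-colour Agilent arrays, 1 per condition. Spot intensities were deposited as scanner output of Agilent Feature Extraction 12.0.3.1 (per the labels), which had subtracted background and a spatial trend (per the file headers), with flags for outliers and for signal well above background, and a table of the same intensities times 1 factor per array (2.60 and 2.63 for F/F and LKO on chow, 2.41 and 2.10 on HFD), whose origin is not given in the sources used here.

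From the processed intensity, log2 minus the 75th percentile of the spots that are not controls was computed (Python 3.11.15, pandas 2.3.3, numpy 2.4.6). Outlier spots were left out and spots of a probe averaged. Accessions were matched to symbols through the RefSeq table of GRCm38.p6, with 33767 of 56605 probes (59.7%) matched. A gene was read from its brightest probe (by the mean of the 4 arrays). Where that probe did not pass the background flag on 1 array of a comparison, the value is a bound, with the lowest signal well above background (7.80 to 8.35) as floor, and where it passed on neither there is no value. Spot spread came from 300 probes printed 10 times, and no marker probe is among them. No test was made, since no condition has replicates, and the number of arrays limits the precision. An additive fit of genotype and diet, which would leave 1 residual degree of freedom, was not run. The markers, the 17 gene lists (some share genes) and the motifs were chosen with earlier results of these data known. Of each list, the 4 brightest genes and those with the highest and lowest difference in LKO against F/F on HFD could be named, and lists of at most 6 genes in full. The steps were tested on simulated data made from a single array (F/F HFD) by adding spot noise and changing 200 of 23462 genes 4-fold, and recovered 200 with 0 others, which checks the code and not calls between separate arrays. Alternatives were normexp with offset 50 (limma 3.58.1, R 4.3.3), quantile normalization, 2 other percentiles, the deposited table, other probes of a gene, other filters and thresholds of 1.5-fold and 4-fold. The deposited table, set to its 75th percentile, could change no difference, being the same intensities times 1 factor per array. Other filters could change no marker, as all 9 brightest probes passed the background flag on every array. The mean or dimmest probe could not change markers with 1 probe. 1 gene of the lists is counted but not reported here by name. Figures were drawn with matplotlib 3.10.9.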

Additional observations from a re-analysis of the deposited data

How the results depend on the processing

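With 1 array per condition, no value has a replicate error. The labels pair no arrays, and no paired test was run. Under the 10 alternatives, 296 of 359 recomputed marker differences moved by less than the spread of spot copies, 59 by more and 4 reversed. Only a value above that spread (0.087) could reverse. Many of the 296 could not have moved, as described above. Marco stayed between -1.67 and -1.59 for LKO against F/F on HFD, Timd4 between -0.98 and -0.64, and Cd163 between -0.68 and -0.16, the last with its dimmer probe. Reversed was Csf1r with its dimmer probe (HFD against chow -0.23 in F/F and -0.17 in LKO). So was Adgre1 with the mean of its probes (LKO against F/F on chow 0.30), of which 1 was not well above background on chow. Timd4 reversed in the deposited table at its own scale (HFD against chow in F/F 0.036), an alternative chosen after seeing the data. In 7 more cases a smaller difference changed sign, each for LKO against F/F on chow: Cd163 (0.02, down to -0.14 with its dimmer probe), Csf1r (-0.07, up to 0.09 with its dimmer probe) and Folr2 (0.06, to -0.03 with normexp). The deposited scale moved the median of all genes to 0.11 for HFD against chow in F/F, and omitting the filter and floor moved it to -0.12 for that comparison and for LKO against F/F on HFD and to -0.21 for HFD against chow in LKO.

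The marker median for HFD against chow in LKO, 0.75, became 0.85 with quantile normalization, 0.84 with the percentile over spots well above background, 0.90 at the deposited scale and 0.52 with the mean of probes or the dimmest probe. In F/F it became 0.50 at the deposited scale. Markers at least 2-fold higher for HFD against chow in LKO (all genes in brackets) were 1 (1238) as reported. They were 3 under the first 3 settings (1289, 1421, 1549) and 2 with the mean or dimmest probe (1135, 1033). In F/F, 1 (696) was 2-fold higher with the mean and 1 (426) lower with the dimmest probe. At 1.5-fold, 2 markers were higher and 3 lower in LKO against F/F on HFD, 1 was higher for HFD against chow in F/F and 5 in LKO. At 4-fold, the first comparison had 0 lower, and the last 0 higher and 0 lower. Neither fold has a share of all genes to compare with.

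By the same rule, the list medians that reversed were those of B cells with normexp (-0.056 for LKO against F/F on HFD, -0.049 for HFD against chow in F/F and -0.18 in LKO), dendritic cells for HFD against chow in F/F (-0.17 with normexp, -0.069 without filter and floor, and -0.069 with genes passing the background flag on every array) and the ligands listed with hemopexin for HFD against chow in LKO with quantile normalization (0.30). In 21 more cases a list median within the spread changed sign, most of them for LKO against F/F on chow. Of 680 list medians, 523 moved by less than the spread of spot copies. Over all genes, 366 were at least 2-fold higher and 296 lower in LKO against F/F on HFD, but 94 and 85 with normexp, 199 and 170 when every array had to pass the background flag, and 996 and 889 without filter and floor. In the same order of settings, the counts were 167 and 154, then 20 and 19, 76 and 75, and 672 and 807 for LKO against F/F on chow. For HFD against chow they were 800 and 452 in F/F (normexp 211 and 148, no filter 1366 and 1351, deposited scale 1075 and 337) and 1238 and 621 in LKO (428 and 240, 1912 and 1508, 1549 and 445). The cause of these shifts was not tested.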
